A study of Mus musculus with 10 samples.

Results

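The genes described here encode 7 secreted ligands of the activin, GDF and BMP branches of the TGF-β superfamily, namely Inhba, Inhbb, Gdf15, Mstn, Bmp2, Bmp4 and Bmp10, and 3 secreted proteins of the follistatin family, namely Fst, Fstl3 and Fstl1. They were chosen by their gene symbol on the array, and 10 of 19942 symbols, carried by 11 of 26423 probes, met that rule. Fstl3 was measured with 2 probes and each of the other genes with 1. Left-ventricle mRNA of male C57BL/6J mice, operated at the age of 8 weeks, was compared between transverse aortic banding (TAB), which narrows the aorta and puts the left ventricle under pressure overload, and a sham operation. Samples were taken from both operations 3, 5, 7, 14 and 28 days later, 1 per operation and day, hence 5 TAB and 5 sham samples. One TAB sample, used as day 14 as its title has it, is given as 15 days in another label. The number of mice in a sample is not given in the sources used here, and the controls were operated animals throughout.

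Activins are dimers of inhibin β subunits. Activins and myostatin bind type II and type I receptor kinases and act through SMAD2 and SMAD3, whereas BMPs act through SMAD1, SMAD5 and SMAD9 and raise the transcription of Id genes. Follistatin and follistatin-like 3 bind activins and myostatin outside the cell and block their access to the receptors. GDF15 is a distant member of the superfamily that is released by stressed cells and signals through GFRAL in the hindbrain. In the heart, BMP10 is known as a product of the atria, and FSTL1 as a protein secreted by muscle and mesenchymal cells.

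The 10 arrays had median raw intensities of 34 to 57, and 40.2% to 47.3% of the spots of an array were not found by the scanner software. After normalization 16113 genes were tested. 9 of the 10 genes were among them, and 5 of these (Gdf15, Bmp2, Bmp4, Fstl3 and Fstl1) had a probe found on all 10 arrays. The cardiomyocyte markers were found on all arrays, 8 of 8 genes, and their summed normalized intensity was 214422 to 226733 in TAB and 219595 to 251909 in sham, lower in TAB on 4 of 5 days and nearly equal on day 3 (219533 in TAB and 219595 in sham). Myl2 was saturated on 9 arrays, and without it the sum was 148927 to 161233 in TAB and 154095 to 186410 in sham. Of the 8 genes, Atp2a2 was lower in TAB (limma adjusted p = 0.0370) and 7 did not pass. The probe used for Atp2a2, 1 of its 3, was the dimmest of these markers, with 115 to 178 in TAB and 192 to 218 in sham. The part of the cardiomyocyte markers in the results below was not tested. With 1 sample per operation and day, a difference on a single day has no replicate check, and the p-values below treat the 5 days as the replicates of a mean TAB effect. They measure the spread between these samples only.

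Gdf15, Fstl1 and Fstl3 rose in every comparison of a day, and Inhba rose to a smaller extent. In the fit of the mean TAB effect (limma, with the day as a block), these 4 of the 9 tested genes had an adjusted p under 0.05 and were higher in TAB, and none was lower. Among all genes tested, 9.19% were higher and 7.87% lower by the same rule. The median of the mean log2 ratios was 0.59 over the 9 genes and −0.03 over all 16113 genes. The median gene of the 9 was Inhbb, whose value was 0.28 without day 7 and 0.25 with 50 added to the intensities. For Gdf15, Fstl3 and Fstl1, all 5 TAB values lay above all 5 sham values, which 9.99% of all genes shared. In these bulk samples a gain or loss of cells of a type and a change of RNA per cell cannot be told apart.

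**Figure D1:**
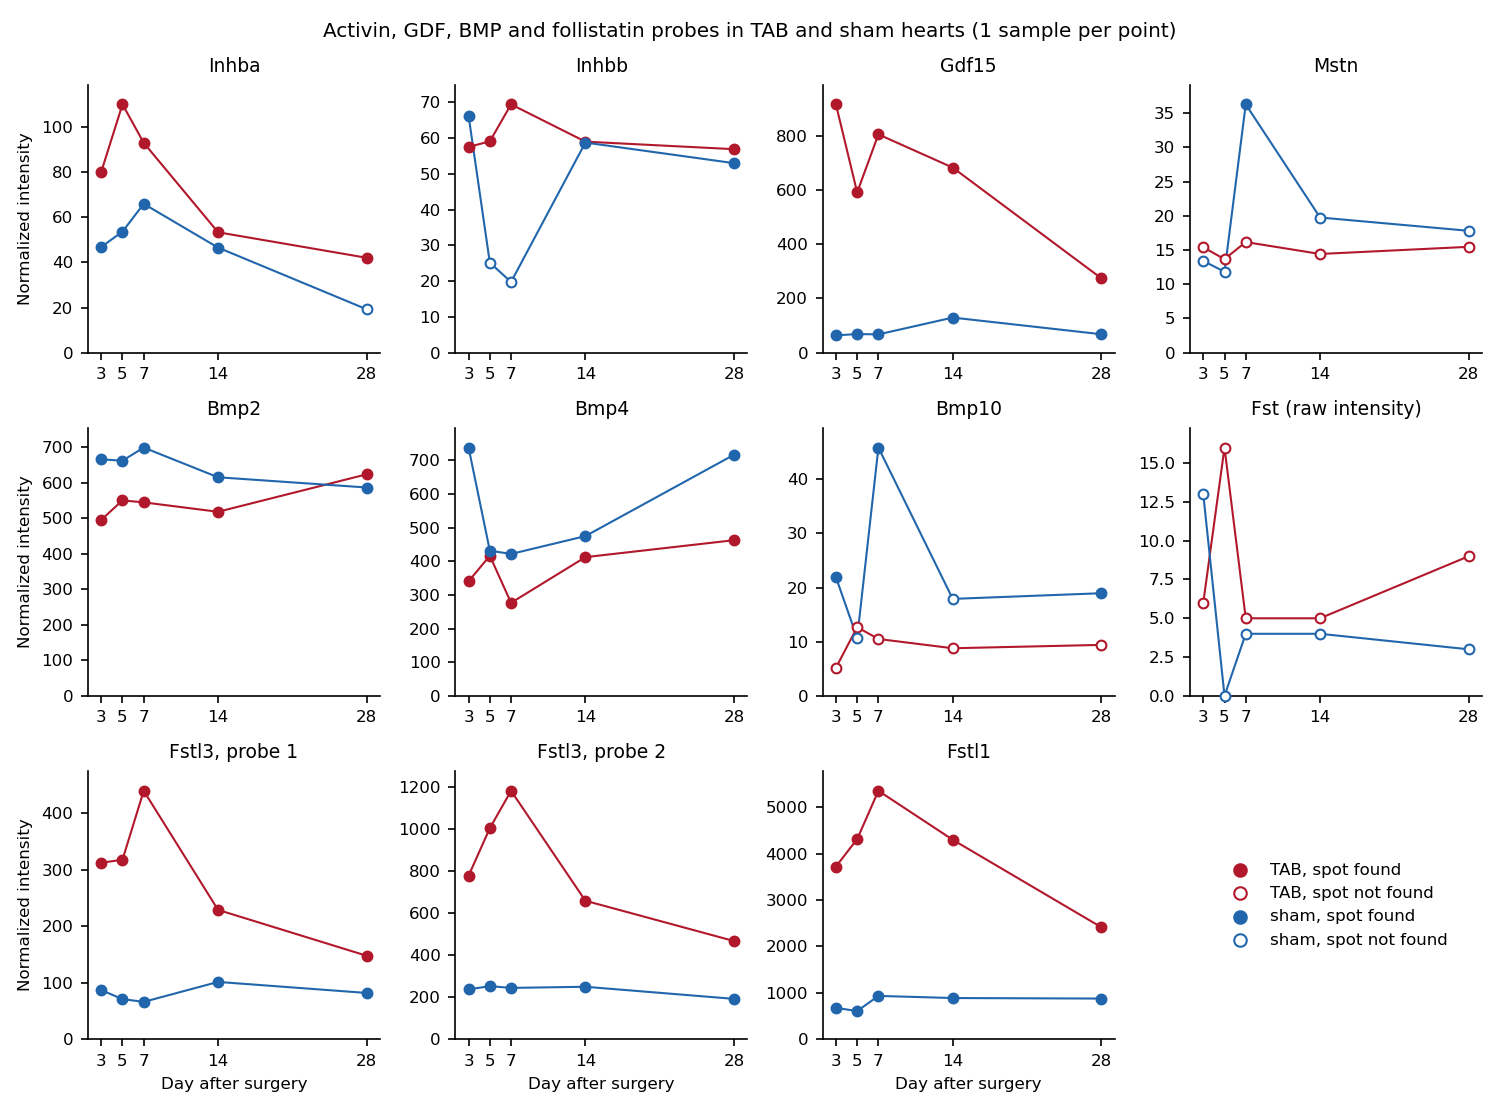
Normalized intensity (raw intensity for Fst) of each of the 11 probes against the day after surgery, with TAB in red and sham in blue, 1 sample per point and lines joining the samples of an operation. Open points are spots that were not found. The TAB and sham values of Gdf15, both Fstl3 probes and Fstl1 do not overlap, whereas those of the other probes do.

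Gdf15 had the largest mean TAB effect of the 9 genes. Its normalized intensity in TAB was 916, 591, 805, 683 and 274 in the order of the days. In sham it was 63.6, 68.6, 67.3, 129 and 67.9. The lowest TAB value, on day 28, was above the highest sham value, on day 14. The separation was present before normalization, since raw intensities ranged from 335 to 841 in TAB and from 59 to 129 in sham. TAB exceeded sham 14.4-fold, 8.61-fold, 11.97-fold, 5.28-fold and 4.04-fold on the successive days. Over the 5 days the log2 ratio averaged 2.99 (SE 0.29, n = 5 days, 95% interval 2.28 to 3.70, limma adjusted p = 0.0116), a mean fold of 7.94, and ranked 40 from the top of all genes tested.

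Fstl1, a secreted glycoprotein with a follistatin-like domain, followed. Its normalized intensity was 3719, 4311, 5351, 4296 and 2409.8 on days 3, 5, 7, 14 and 28 of TAB. In sham it was 674, 603, 931, 885 and 873. The lowest TAB value, again on day 28, was well over the highest sham value, on day 7. The log2 ratio was 2.46, 2.84, 2.52, 2.28 and 1.46 on the successive days, and its mean was 2.31 (SE 0.21, n = 5 days, 95% interval 1.81 to 2.82, limma adjusted p = 0.0116), a mean fold of 4.97.

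Fstl3, the activin and myostatin antagonist, rose with both of its probes. The probe used for the gene read 312, 318, 439.9, 229 and 148 in TAB on days 3 to 28, and 86.7, 70.8, 65.9, 101 and 81.7 in sham. The other probe read 779, 1005, 1183, 659 and 467 in TAB, and 237, 252, 244, 249 and 192 in sham. Neither probe had a TAB value within the sham range, and on both probes the highest TAB value was that of day 7 and the lowest that of day 28. With the probe used, the log2 ratio averaged 1.76 (SE 0.29, n = 5 days, 95% interval 1.06 to 2.45, limma adjusted p = 0.0213), a mean fold of 3.38. With the other probe it averaged 1.74 (SE 0.17).

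Inhba, which encodes the β subunit of activin A, was higher in TAB on 5 of 5 days, but its values overlapped between the operations. They were 80.1, 110.0, 93.0, 53.3 and 42.0 in TAB and 46.8, 53.6, 65.9, 46.5 and 19.2 in sham, and the spot of the sham sample of day 28 was not found. The TAB values of days 14 and 28 lay within the sham range. The largest log2 ratio of a day, 1.13 on day 28, rests on the sham spot that was not found. Over the 5 days the log2 ratio of Inhba averaged 0.73 (SE 0.17, n = 5 days, 95% interval 0.32 to 1.13, limma adjusted p = 0.0371), a mean fold of 1.65.

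These 4 calls depended on which days were in the fit. Leaving out day 3, 5 or 7 reduced the genes called among all tested from 2749 to 30, 98 and 22. The limma adjusted p of Gdf15 was then 0.0558, 0.0513 and 0.0579, that of Fstl1 0.0558, 0.0442 and 0.0579, that of Fstl3 0.0770, 0.0721 and 0.0737, and that of Inhba 0.105, 0.113 and 0.0964. Without day 14, 947 genes were called and all 4 genes were among them, and without day 28 Inhba had an adjusted p of 0.0661. With any 1 day left out the mean log2 ratio ranged from 2.78 to 3.23 for Gdf15, from 2.18 to 2.53 for Fstl1, from 1.51 to 1.98 for Fstl3 and from 0.63 to 0.86 for Inhba. Inhba also had an adjusted p of 0.173 in the fit without the day block and of 0.0714 when probes below the intensity minimum were kept. With 50 added to the intensities its mean log2 ratio was 0.37 (limma adjusted p = 0.0199).

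**Figure D2:**
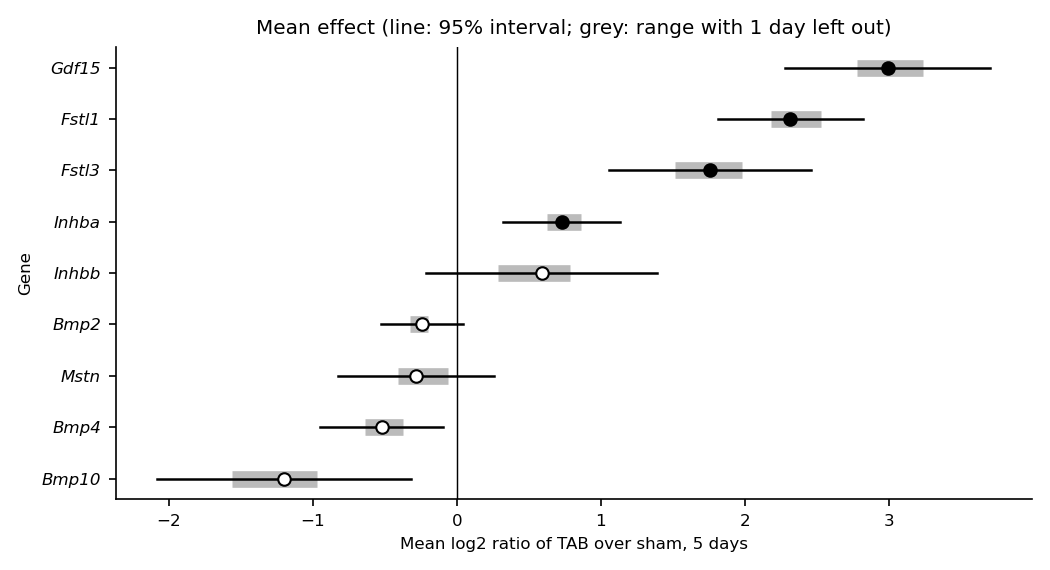
Mean log2 ratio of TAB over sham over the 5 days for the 9 tested genes. Points are the limma estimates, filled where the adjusted p was under 0.05, black lines are 95% intervals, and grey bars are the range of the estimate with 1 day left out. Every grey bar stays on the side of 0 of its estimate, and the filled points are Gdf15, Fstl1, Fstl3 and Inhba.

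On single days, a gene was called differentially expressed when its log2 ratio passed 2 SDs of all ratios of that day. In the order of the days the limit was 1.78, 1.93, 1.75, 1.48 and 1.38. Gdf15 and Fstl1 were called up on all 5 days, as were 0.348% of all genes. Fstl3 was called up on days 3, 5 and 7, with log2 ratios of 1.85, 2.17 and 2.74, and stayed under the limit on day 14 with 1.18 and on day 28 with 0.85. These Fstl3 calls are those of the probe used for the gene, the dimmer of its 2 probes. Of all genes, 3.1%, 4.09%, 4.08%, 3.39% and 3.41% were called up on the successive days, and of the 9 genes 3, 3, 4, 2 and 2. The fourth gene of day 7 was Inhbb.

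The spread without banding was read from the 10 pairs that the sham samples form. It includes the days between them and the noise of the arrays. The largest absolute log2 ratio between 2 sham samples was 1.02 for Gdf15, 0.63 for Fstl1 and 0.62 for Fstl3, and the TAB over sham ratio was beyond it on 5 of 5 days for each of them. For Inhba it was 1.78, set by the sham spot of day 28 that was not found, and no day of TAB went beyond it. Over the 4 sham samples in which the Inhba spot was found it was 0.50, and TAB was beyond that on 3 of 5 days, one of them day 28, whose own sham spot was not found.

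**Figure D3:**
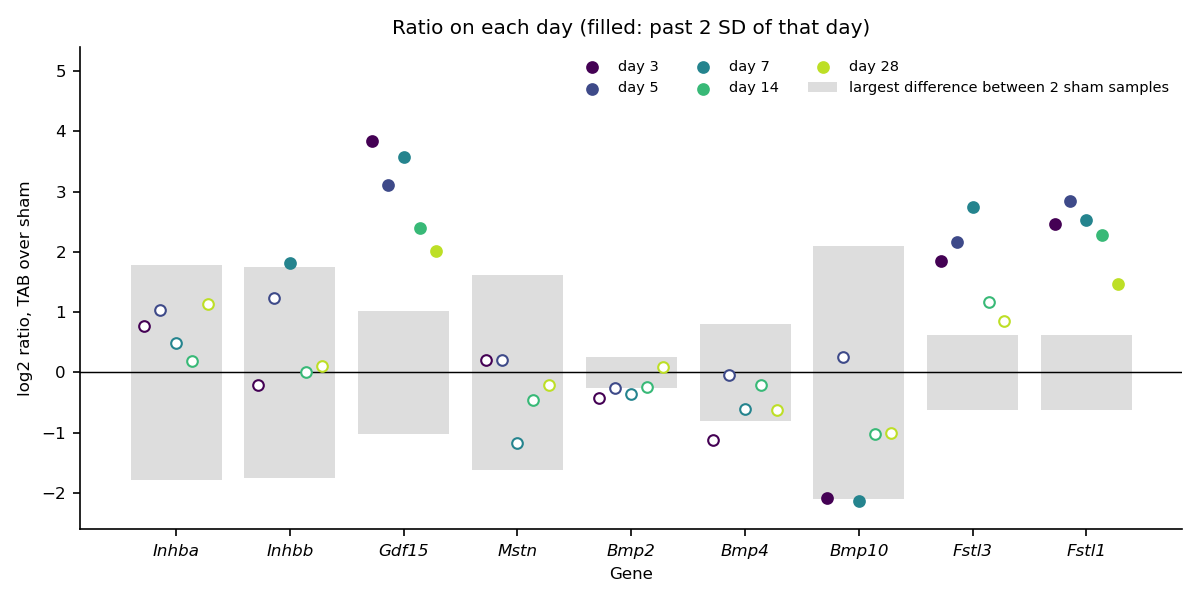
log2 ratio of TAB over sham for each of the 9 tested genes, 1 point per day. Points are filled where the ratio passed 2 SDs of that day, and grey bars span the largest difference between 2 sham samples in either direction. Gdf15, Fstl1 and Fstl3 lie above their bars on every day. The points of Inhba lie within its bar of 1.78, which the sham spot of day 28 that was not found sets, and the bar would be 0.50 without that spot, with the points of 3 days beyond it.

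The ratios of the same 3 genes were smaller on days 14 and 28 than on days 3 to 7. On day 14 the TAB values of Gdf15 and Fstl1 lay within their range of days 3 to 7. Gdf15 read 683 in TAB, above its 591 on day 5, and 129 in sham, its highest sham value. Fstl1 read 4296 in TAB, beside 3719 and 4311 on days 3 and 5. Its sham values were 674, 603, 931, 885 and 873 on the successive days. Fstl3 read 229 in TAB on day 14, below its values of days 3 to 7. On day 28 the TAB value of each gene was its lowest. The mean log2 ratio of Gdf15 was 3.51 on the early and 2.21 on the late days, a difference of −1.31 (95% interval −2.08 to −0.53, limma adjusted p = 0.394). For Fstl3 the means were 2.25 and 1.01 (difference −1.24, 95% interval −2.08 to −0.39, limma adjusted p = 0.402). For Fstl1 they were 2.61 and 1.87 (difference −0.74, 95% interval −1.55 to 0.08, limma adjusted p = 0.477). The sizes depended on the settings: that of Fstl3 was −0.42 with day 7 counted as late, −0.72 with median scaling only, −0.66 with quantiles taken separately for TAB and sham, −0.63 with 50 added and −0.65 with its brighter probe, that of Gdf15 was −0.81 with day 7 counted as late, and that of Fstl1 was −1.14 without day 14 and −0.33 without day 28. The probe of Fstl3 was chosen anew in each setting of normalization. Its values of −0.72, −0.66 and −0.63 lie near the −0.65 of the brighter probe. A change of setting and a change of probe thus cannot be told apart in them. None of the differences between late and early days passed the threshold over all genes, and neither did any of the 16113 genes (0%), of which 1766 had an unadjusted p under 0.05 in limma.

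Start-site sequences of the 3 genes whose TAB and sham values were separate are shown because they rose together and their upstream regions can be set side by side. They come from a set of promoter windows on GRCm38.p6, of 250 bases before and 50 after a start site, which covers 8 of the 10 genes. Bmp2 and Fst have no window in that set. The spans of the genes were those of RefSeq, which lists all 10. Below are the 150 bases that precede the outermost annotated start of each gene, 5′ to 3′ on the strand of the gene, with the matches to the motifs searched in capitals.
Gdf15 (chr8:70632471-70632620, minus strand): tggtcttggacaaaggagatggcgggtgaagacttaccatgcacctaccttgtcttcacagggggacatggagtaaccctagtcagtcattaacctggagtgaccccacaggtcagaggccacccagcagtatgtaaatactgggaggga
Fstl3 (chr10:79777124-79777273, plus strand): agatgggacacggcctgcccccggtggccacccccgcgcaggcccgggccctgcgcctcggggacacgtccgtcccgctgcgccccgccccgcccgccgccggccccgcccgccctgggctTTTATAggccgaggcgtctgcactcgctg
Fstl1 (chr16:37776905-37777054, plus strand): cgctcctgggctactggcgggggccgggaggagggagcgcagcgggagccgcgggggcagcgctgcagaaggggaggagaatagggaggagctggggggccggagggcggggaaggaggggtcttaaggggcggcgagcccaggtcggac

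The motifs were searched in the whole windows on both strands. Fstl3 held TATAAA on the opposite strand, beginning 29 bases before the start site, as the capitals show. Gdf15 held 1 match to the TEAD-binding MCAT element, CATTCC, beginning 137 bases before its second annotated start site (chr8:70632215-70632244, minus strand), in capitals in tcctcttccctcCATTCCcaagaggaaccc. Inhba held TATAAA beginning 91 bases before an annotated start site that lies inside the span of the gene, whose outermost start is at 16004256 on chromosome 13 (match at chr13:16011748-16011777, plus strand), in acaacttctaaaTATAAAtctctggcacat. The window of Fstl1 held none of the 7 motifs. Of all 32851 windows, 13.6% held TATAAA and 14.7% CATTCC.

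The motifs of AP-1 (TGANTCA, in 7.81% of all windows), CRE (TGACGTCA, 1.79%), the ATF4 and C/EBP composite (TGATGNAAN, 3.95%), the SMAD palindrome (GTCTAGAC, 0.213%) and the GC element bound by BMP SMADs (GGCGCC, 11.9%) had no match in the windows of the 4 genes that rose. The windows of Fstl3 and Fstl1 were 70.7% and 66.7% G or C, those of Gdf15 57.0% and 56.0% and that of Inhba 47.7%, against a median of 52.7% over all windows. A match is a run of letters, and whether any of these sites was bound was not measured.

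The BMP ligands did not pass the threshold in either direction. Bmp2, a ligand of valve and endocardial development, read 495, 549.9, 544, 518 and 623 in TAB and 665, 662, 698, 615 and 586 in sham on days 3 to 28. TAB was lower on 4 of 5 days and higher on day 28, and the groups overlapped. The log2 ratio averaged −0.24 (SE 0.12, n = 5 days, 95% interval −0.53 to 0.04, limma adjusted p = 0.192). The sham values were close to each other, with a largest absolute log2 ratio of 0.25, and the TAB over sham ratio was beyond it on 3 days.

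Bmp4, which acts in mesoderm and heart development, read 340.4, 416, 277, 412 and 463 in TAB and 738, 432, 422, 475 and 717 in sham. TAB was lower on 5 of 5 days, by a log2 ratio of −0.05 on day 5 up to −1.12 on day 3, but the TAB value of day 28 reached into the sham range. Its average was −0.52 (SE 0.18, n = 5 days, 95% interval −0.95 to −0.09, limma adjusted p = 0.0887). This result depended on the genes and settings in the fit: the adjusted p was 0.0330 over the probes found on all 10 arrays, 0.0409 without the lowest tertile of genes, 0.0415 with 50 added to the intensities and 0.0316 with a trend and robust variance.

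Bmp10, a ligand that maintains ventricular trabecular growth in the embryo, was close to the background of the array. Its spot was not found on any TAB array, where it read 5.18, 12.7, 10.5, 8.79 and 9.41, and was found on 3 of 5 sham arrays, those of days 3, 7 and 28. The sham values were 21.9, 10.7, 45.9, 17.9 and 18.96. On these 3 days sham was higher, and on days 5 and 14, with the spot found in neither sample, no direction can be read. No fold is given, since the values of spots that were not found are upper limits. The fitted mean log2 ratio rests on them, with −1.20 for the values as read (limma adjusted p = 0.0686) and −0.28 with 50 added (limma adjusted p = 0.0849). The adjusted p was 0.0391 without the day block and 0.0489 with a trend and robust variance. Bmp10 was called down on days 3 and 7, on which 2.1% and 1.58% of all genes were called down.

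Markers of atrial cardiomyocytes were set beside Bmp10, since Bmp10 is known as a product of the atria. All 3 (Myl7, Myl4 and Sln) were found on all 10 arrays. Their summed normalized intensity was 4205, 3841, 4760.1, 2556 and 4730.0 in TAB and 4390.1, 4593, 6598, 9973 and 6130.5 in sham on days 3 to 28, lower in TAB on each day. Myl7 and Sln were lower on 5 of 5 days, whereas Myl4 was higher in TAB on days 3 and 5 (log2 ratios 0.17 and 0.11). The largest differences were those of day 14, with log2 ratios of −2.24 for Myl7, −1.56 for Myl4 and −2.76 for Sln. On the other days no ratio was below −0.76. None of the 3 passed the threshold: the mean log2 ratio was −0.81 for Myl7 (limma adjusted p = 0.114), −0.40 for Myl4 (limma adjusted p = 0.332) and −0.90 for Sln (limma adjusted p = 0.156). The highest sham sum was on day 14, on which the Bmp10 spot was not found in either sample. The part of atrial tissue in the Bmp10 values was not tested.

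The remaining 3 genes were dim. Inhbb, the β subunit of activin B, read 57.6, 59.1, 69.5, 59.0 and 56.9 in TAB and 66.3, 25.2, 19.8, 58.8 and 53.0 in sham. The low sham values of days 5 and 7 were spots that were not found, and on the other 3 days TAB and sham lay close together. The log2 ratio averaged 0.59 (SE 0.33, n = 5 days, 95% interval −0.21 to 1.39, limma adjusted p = 0.253), and with any 1 day left out it ranged from 0.28 without day 7 to 0.79 without day 3. Mstn, which encodes myostatin, the inhibitor of muscle growth, was not found on any TAB array and on 1 sham array only, that of day 7, which read 36.3. Its other values were 13.7 to 16.2 in TAB and 11.8 to 19.7 in sham (fitted mean log2 ratio −0.28, or −0.09 with 50 added, limma adjusted p = 0.412 for the former), so that both groups lay at or near background. Fst, follistatin itself, was not found on any array, with raw intensities of 5 to 16 in TAB and 0 to 13 in sham, and it was removed by the intensity minimum.

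The other genes of the pathway were taken from 6 lists of 78 genes in all, of which 2 were not on the array and 67 were tested. In TAB 6 were higher, 3 were lower and 58 did not pass, with a median log2 ratio of −0.08, beside 9.19% higher and 7.87% lower among all genes. No gene of the lists was called by the 2 SD rule in the same direction on 3 or more days. With day 3, 5 or 7 left out none of the pathway genes passed.

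Among 19 tested ligands, Lefty1, an antagonist of Nodal signalling, was higher and Gdf2 was lower. Lefty1 read 105 to 175 in TAB and 71.2 to 124 in sham, with a mean log2 ratio of 0.69 (SE 0.13, limma adjusted p = 0.0260). Gdf2, which encodes BMP9, a circulating ligand of endothelial cells, read 50.1 to 75.4 in TAB and 72.9 to 103 in sham, and its mean log2 ratio was −0.52 (SE 0.10, limma adjusted p = 0.0260). Both groups of values overlapped.

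Of 14 tested receptors and co-receptors, the endothelial type I receptor Acvrl1 (ALK1), which binds BMP9 and BMP10, was higher, with 933 to 1438 in TAB and 636 to 733 in sham. Its mean log2 ratio was 0.86 (SE 0.12, limma adjusted p = 0.0167), and the groups did not overlap. The type II receptor Acvr2b, which binds activins and myostatin, was lower, with 218 to 380.3 in TAB and 373 to 531 in sham, values that overlapped by the TAB sample of day 28. Its mean log2 ratio was −0.70 (SE 0.11, limma adjusted p = 0.0207).

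Of the 8 SMAD genes, Smad1 was higher and Smad9 lower, both of them signal transducers of BMP receptors. Smad1 read 369.5 to 421 in TAB and 234 to 307 in sham without overlap (mean log2 ratio 0.61, SE 0.12, limma adjusted p = 0.0268). Smad9 read 28.5 to 55.6 in TAB and 47.4 to 74.0 in sham, with 2 TAB spots not found (mean log2 ratio −0.65, SE 0.12, limma adjusted p = 0.0237). The remaining 6 did not pass.

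The antagonist Nbl1, a DAN family protein that binds BMPs, was the 1 gene of 17 tested antagonists that passed, with 304 to 535 in TAB and 185 to 222 in sham (mean log2 ratio 0.98, SE 0.16, limma adjusted p = 0.0208). Bmp1, a protease that processes procollagens and cleaves the BMP antagonist chordin, and no ligand despite its name, was the 1 of 4 tested proteases that passed, with 88.7 to 157 in TAB and 55.1 to 71.9 in sham (mean log2 ratio 1.05, SE 0.18, limma adjusted p = 0.0227). Id3, a target of BMP signalling, was the 1 of 5 tested target genes that passed, with 7807 to 10128 in TAB and 4371 to 5545 in sham (mean log2 ratio 0.90, SE 0.12, limma adjusted p = 0.0154). In Nbl1, Bmp1 and Id3 TAB and sham did not overlap. Of the target genes that did not pass, Id1 was found on all arrays, with a mean log2 ratio of 0.004 (limma adjusted p = 0.986). The mean log2 ratio was 0.37 for Id2 (limma adjusted p = 0.112) and 0.36 for Atoh8 (limma adjusted p = 0.102). For Id4, found on 4 arrays, it was 0.50 (limma adjusted p = 0.193).

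The sizes and calls of some of these genes depended on the settings. With 50 added to the intensities the mean log2 ratio was −0.31 for Smad9, −0.30 for Gdf2 and 0.68 for Bmp1. With probes below the intensity minimum kept, Gdf2, Lefty1, Smad1, Smad9 and Bmp1 did not pass, with limma adjusted p values of 0.0502 to 0.0563.

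**Figure D4:**
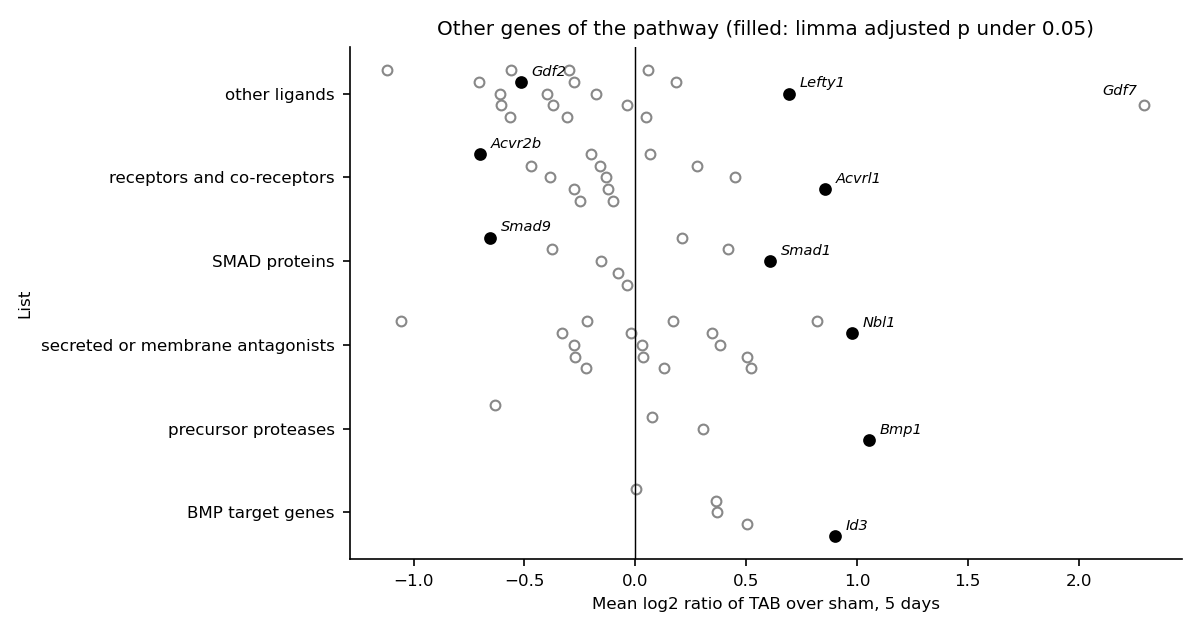
Mean log2 ratio of TAB over sham over the 5 days for the 67 tested genes of the 6 pathway lists, 1 point per gene and list by list, spread vertically for legibility. Filled and named points had a limma adjusted p under 0.05, namely 6 higher and 3 lower in TAB. The open point at the far right is Gdf7, whose spot was found on 1 array.

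Part of the fibroblast markers and the tested macrophage markers were higher in TAB, as Gdf15, Fstl3 and Fstl1 were. Of 7 listed fibroblast markers, 5 were tested and 3 (Lum, Col3a1 and Postn) were higher in TAB. Tcf21 (mean log2 ratio 0.24, limma adjusted p = 0.265) and Dcn (mean log2 ratio 0.26, limma adjusted p = 0.119) did not pass, Pdgfra was found on 2 arrays and Col1a1 on none. The summed normalized intensity of the 5 ranged from 28939 to 44912 in TAB and from 19664 to 22979 in sham. Dcn and Postn made up most of the sum in TAB, and Postn most of its difference between the operations. On day 5, for example, Postn read 17226 in TAB and 1213 in sham, Dcn 19784 and 16494, and Tcf21 298 and 195. Of 7 listed macrophage and monocyte markers 5 were tested and all 5 were higher in TAB, with a sum of 1828 to 4839.6 in TAB and 1099 to 1413 in sham. The summed markers of both types were highest on day 7 and lowest on day 28 within TAB, the days on which Fstl1 and Fstl3 were highest and lowest as well. Taken singly, the fibroblast markers were highest on other days: Col3a1 on day 3, Postn on day 5, and Dcn, Lum and Tcf21 on day 14. Of the macrophage markers, Cd68, Csf1r and Emr1 were highest on day 7, and Ccr2 and Itgam on day 5. Gdf15 was highest on day 3 and lowest on day 28 within TAB. The part of the fibroblast and macrophage markers in the results was not tested. Endothelial markers, set beside Acvrl1 and Gdf2, passed in 0 of 5 genes, with sums of 4905 to 6942 in TAB and 4622 to 5919 in sham, and the sum was higher in TAB on 5 of 5 days. Their part in the values of both genes was not tested.

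**Figure D5:**
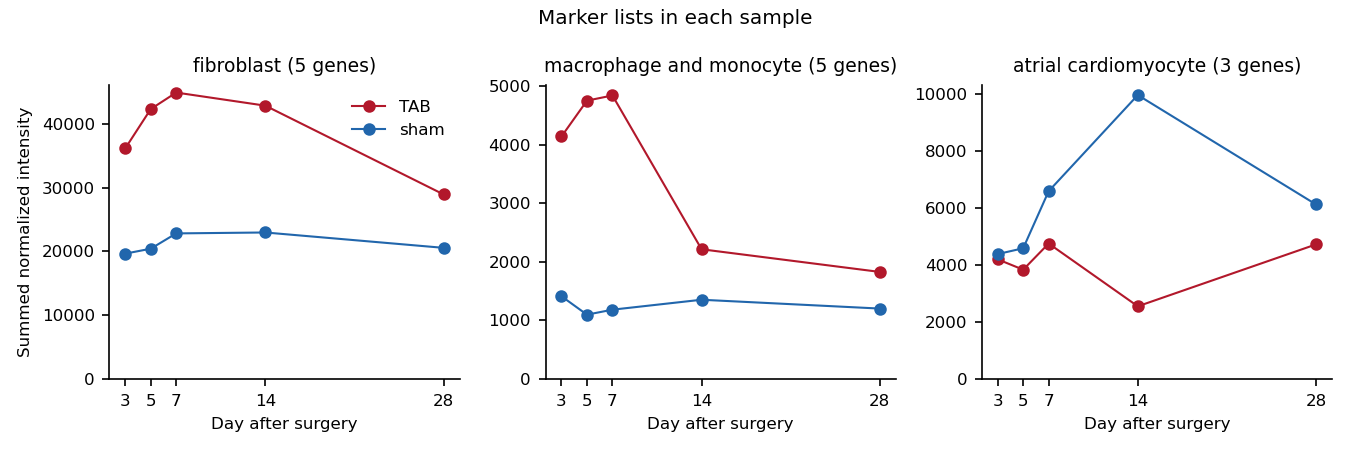
Summed normalized intensity of the tested markers of fibroblasts, macrophages and monocytes, and atrial cardiomyocytes against the day after surgery, with TAB in red and sham in blue, 1 sample per point. The fibroblast and macrophage sums of TAB lie above all sham sums, and the atrial sum of TAB is below that of sham on each day. Dcn and Postn make up most of the fibroblast sum in TAB. Of the atrial markers, Myl4 was higher in TAB on days 3 and 5.

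The genes with the pattern most like that of each called gene over the 10 samples, among those found on all arrays, were named by Pearson's r of the log2 intensities. The r was taken over both operations together and thus includes the difference between them. For Fstl1 they were Emp1 (r = 0.996), Ltbp2 (r = 0.991) and Ctsk (r = 0.989). For Fstl3 they were Sphk1 (r = 0.991), Mitd1 (r = 0.990) and the macrophage receptor gene Csf1r (r = 0.990). For Gdf15 they were Enah (r = 0.987), Gpr153 (r = 0.986) and Ccdc68 (r = 0.983), and for Inhba Ccdc71 (r = 0.960), D630023F18Rik (r = 0.942) and Tmem93 (r = 0.935).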

How the data were processed

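The authors deposited raw intensity per probe and sample from 1-colour OneArray chips, labelled with Cy5 and read with GenePix, with a background already subtracted (values reached −14) by a method that is not given in the sources used here. The deposited detection p-values were not used, and a deposited flag of −50 was read as a spot that was not found. Arrays were brought to 1 median, probes with less than 1 in any sample were removed, quantile normalization over the 10 samples gave each rank its median, and log2 was taken without a pseudocount. Of several probes of a gene, that with the largest absolute log2 ratios summed over the days was used. This choice was made anew in each alternative of normalization or filter. Values of spots that were not found are upper limits.

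The mean TAB effect over the 5 days (day as a block) and the difference between days 14 and 28 and days 3, 5 and 7 were fitted with limma over 16113 genes, with Benjamini-Hochberg adjustment at 0.05. The day was the block because TAB and sham are paired by it in the study's ratios. Deviations from the group means correlated between TAB and sham of a day with r = 0.113 on day 3 and −0.0165, 0.0065, 0.0029 and 0.0140 on days 5, 7, 14 and 28. Precision is limited by how many arrays there were. Fits were tested on simulated data.

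The genes, lists, motifs and tests were chosen with earlier results of these data known. All 10 genes are named, pathway genes past the threshold or called on 3 days, marker lists by counts, and 3 genes alike in pattern for each called gene. Alternatives were scaling to the median without quantiles, quantiles taken separately for TAB and sham, rank means in place of rank medians, 50 added, probes below 1 set to 1, the lowest tertile of genes left out, only probes found on at least 1 array, the mean or the brightest probe, no day block, a trend and robust variance, each day left out, other limits for a day (absolute log2 ratio of at least 1, or 3 SDs) and day 7 counted as late. Keeping only probes found on all 10 arrays, and a sham spread over found spots only, were added after seeing the data. limma 3.58.1 ran in R 4.3.3, and the other steps in Python 3.11.15 with numpy 2.4.6 and pandas 2.3.3.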

Additional observations from a re-analysis of the deposited data

Results flagged for a closer look

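Of 36 groups of 5 samples (TAB and sham for the 9 tested genes and the 9 pathway genes that passed), 4 held a sample far from the other 4, against about 1 in 20 by chance. The sham sample of day 14 had the highest Gdf15 value of its group, 7.02 on the log2 scale, which was still below every TAB value. The sham sample of day 28 had the lowest Inhba value, 4.26 on the log2 scale, and its spot was not found. Inhbb was highest within TAB on day 7, at 6.12 on the log2 scale, and the other TAB values lay close together. Lefty1 was lowest within TAB on day 3, at 6.72 on the log2 scale.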

How the results depend on the processing

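Arrays of 1 sample per operation and day and dim signals limit the results: Inhba (9 of 10 arrays), Inhbb, Mstn and Bmp10 were not found on all arrays, and their ratios rest partly on background, while Fst was found on none. The higher values of Gdf15, Fstl1 and Fstl3 passed the threshold under each of 12 alternatives of normalization, filter, probe and fit, and Inhba under 9 of 11.

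Without the replicate block, 3598 genes were called, Inhba did not pass (0.73, adjusted p 0.173), Bmp10 passed (−1.20, adjusted p 0.0391), so that 1 of the 9 genes was lower. With trend and robust variance, 4194 genes were called, Bmp4 (−0.52) and Bmp10 (−1.20) passed, which made 2 genes lower, and 6 pathway genes were lower. With 50 added, the mean log2 ratio was 0.37 for Inhba, 0.25 for Inhbb, −0.09 for Mstn and −0.28 for Bmp10, 4469 genes were called, Bmp4 passed (−0.47), 1 of the genes was lower, as were 6 pathway genes, 10 genes passed between late and early days, where Mstn turned to 0.016, and 1 down-call remained. With probes below 1 set to 1, 677 genes were called, Inhba did not pass (0.73), 3 pathway genes were higher, 4353 genes were called on a day and 1 down-call was made. Without the lowest tertile of genes Bmp4 passed (−0.52), 1 of the genes and 5 pathway genes were lower, 9 genes passed between late and early days, 1148 genes were called on a day and 0 down-calls were made. Over probes found on all 10 arrays, Bmp4 passed (−0.52), 1 of the genes and 5 pathway genes were lower, 3974 genes were called in all, 16 between late and early days, 1437 on a day, and 0 down-calls were made. With an absolute log2 ratio of at least 1, 6817 genes were called on a day, and 6 down-calls were made for the 9 genes. With 3 SDs, 926 genes, 6 up-calls and 0 down-calls were made, against 2812, 14 and 2 in the main setting. With day 7 counted as late, the difference between late and early days turned to 0.13 for Inhbb and −0.47 for Bmp10.

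Of the calls, 53.9% were higher in TAB, 67.6% with median scaling only (1782 higher and 855 lower) and 66.3% with normalization within each operation (1871 and 950). With 1 day left out, 22 to 2753 genes were called, 0 to 4 of the genes were higher and none lower, 0 to 8 pathway genes were higher and 0 to 5 lower. The mean log2 ratio ranged from 0.63 to 0.86 for Inhba, 2.78 to 3.23 for Gdf15, 2.18 to 2.53 for Fstl1 and 1.51 to 1.98 for Fstl3. The late minus early difference ranged from −1.51 to −1.11 for Gdf15, −1.44 to −0.99 for Fstl3, −1.14 to −0.33 for Fstl1, −0.57 to 0.36 for Inhba, −0.53 to 0.16 for Mstn, −0.088 to 0.44 for Bmp4 and −0.10 to 1.09 for Bmp10. Gdf2, Lefty1, Smad1, Smad9 and Bmp1 each missed the threshold with probes below 1 set to 1, and passed it under their other alternatives of normalization, filter, probe and fit. The causes were not tested.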

Other observations

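Gdf7 had the highest mean log2 ratio of the pathway lists, 2.30 (SE 2.10, limma adjusted p = 0.477), from 1 sample. Its spot was found on the TAB array of day 3 only. The log2 ratio as read was 12.7 on day 3, against a sham spot that was not found. On days 5, 7, 14 and 28 it was −0.46, −1.12, 0.45 and −0.06, values from which no direction can be read. Gdf7 was named after its values were seen.

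Furin, the convertase that cleaves precursors of the superfamily, had all 5 TAB values below all 5 sham values without passing the threshold (mean log2 ratio −0.63, SE 0.17, limma adjusted p = 0.0558). It was named after its values were seen.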
